A study of Mus musculus with 11 samples.

Results

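Inner pillar cells (IPCs) of the postnatal day 1 (P1) mouse cochlea were picked out by their level of Npy, the gene for neuropeptide Y. A cell was taken when its deposited value, the natural log of 1 plus 10000 times a gene's share of that cell's unique molecular identifiers (UMIs, the tags that count single mRNA molecules), was at least 3.0 for Npy while it stayed under 1.5 for Myo6, 2.0 for Ccer2 and 3.5 for Oc90. Myo6 and Ccer2 mark hair cells (HCs), and Oc90 marks cells of the duct roof. The gate held 172 of the 14043 P1 cells, out of 30634 cells in the 11 droplet libraries of the series. All animals were Wildtype CD1 mice without any treatment. The P1 cells came from 4 libraries (replicates 1 to 4), each prepared from the cochlear duct floors of several pups of either sex that were pooled before dissociation, so that a replicate is a pool and not an animal. IPCs were set against all 13871 other P1 cells and against 603 Deiters-like cells (Prss23 at least 2.0, Emid1 above 0, Npy under 2.0 and no UMI of Matn4), with 1 mean profile for each class in each library. The same gate was also applied to 2 libraries from embryonic day 14 (E14), 3 from E16 and 2 from P7, described at the end.

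Pillar cells are supporting cells (SCs) of the organ of Corti that stand between the inner and the outer HCs and, once mature, frame the tunnel of Corti. They are known for their dense microtubule bundles, and their formation depends on signaling through the receptor Fgfr3. Deiters' cells (DCs) are neighboring SCs that hold the outer HCs. The authors reported Prss23 in all SCs and in some cells of Kölliker's organ, medial to the organ of Corti. They also found outer pillar cells close in expression to part of the DCs. The Deiters-like gate did not exclude outer pillar cells, and their part in the differences from IPCs was not tested. Neuropeptide Y is best known from neurons, where its precursor is cleaved and kept in dense-core granules until release, while Ngfr (the low-affinity neurotrophin receptor p75) is a classical marker of developing pillar cells.

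The upstream sequences of Npy, on which the gate rests, and of Ngfr, a gene the gate did not use that had the largest rise against Deiters-like cells, Gm-numbered genes aside, are printed from RefSeq (GRCm38.p6) as the 250 bases before each annotated start, 5′ to 3′. The Npy stretch is chr6:49822460-49822709 on the plus strand, ahead of the gene at chr6:49822710-49829507. The Ngfr stretch is chr11:95587699-95587948 on the minus strand, ahead of the start that RefSeq gives. In GENCODE vM21 the Ngfr gene spans chr11:95568818-95587735, so that its start there lies inside the printed stretch. Capitals mark ATAAAAG, the only match found to a searched motif.
Npy: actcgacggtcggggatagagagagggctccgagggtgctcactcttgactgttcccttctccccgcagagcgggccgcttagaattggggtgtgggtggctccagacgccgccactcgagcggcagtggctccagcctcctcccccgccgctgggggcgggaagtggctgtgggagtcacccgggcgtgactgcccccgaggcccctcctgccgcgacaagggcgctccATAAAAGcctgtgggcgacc
Ngfr: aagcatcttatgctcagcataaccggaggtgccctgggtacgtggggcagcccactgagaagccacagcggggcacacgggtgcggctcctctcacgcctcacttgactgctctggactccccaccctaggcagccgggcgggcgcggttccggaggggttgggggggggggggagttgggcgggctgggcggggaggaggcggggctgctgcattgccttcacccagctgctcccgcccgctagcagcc
All 5 strings were searched on both strands, and a match is a description of letters, not a site. ATAAAAG lies 20 to 14 bases before the Npy start and occurs in 4.83% of 32851 promoter windows of this length. Neither window held CACGTG (in 6.02% of windows), CACNAG (36.7%), TATAAA (12.4%) or TGGGAA (21.6%). G and C made up 69.2% of the Npy window and 70.4% of the Ngfr window, and the median window held 52.4%.

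The gate took a small share of every P1 library. There were 61 IPCs among 3748 cells of replicate 1, 32 among 2179 of replicate 2, 27 among 2518 of replicate 3 and 52 among 5598 of replicate 4. These are 1.63% (95% exact binomial interval 1.25 to 2.09), 1.47% (1.01 to 2.07), 1.07% (0.708 to 1.56) and 0.929% (0.695 to 1.22), with a mean of 1.27% ± 0.328 (SD, n = 4). The intervals cover counting error only, and those of replicates 1 and 4 do not overlap. With cells of over 3000 genes left out the shares were 0.824%, 1.44%, 0.589% and 0.850%, so that replicate 1 was no longer the highest, and with an Npy threshold of 4.0 they were 1.52%, 1.33%, 0.794% and 0.536%. IPCs were deeper than the cells they were compared with in every library, with medians of 10331, 6720.5, 8213 and 5524 UMIs per cell in replicates 1 to 4 against 6677, 5385.5, 5793 and 4441 in Deiters-like cells and 5613, 5217, 5636 and 3826 in all other P1 cells. The mean share of mitochondrial UMIs was also highest in IPCs of the 3 classes in every library, between 0.538% and 1.0% beside 0.46% to 0.742% in Deiters-like cells and 0.433% to 0.774% in all other P1 cells, and its part in the differences was not tested.

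Genes that follow Npy had to be high in cells gated on it, so the levels below describe the cells and are no check of their label. Besides Npy, the cells carried Emid1, Ngfr, S100b, Smagp and Fgfr3, all known or proposed pillar cell genes, at levels above those of other P1 cells in 4 of 4 libraries. After every cell was thinned to 1500 UMIs, a UMI of Ngfr was found in 39.5% of IPCs (exact interval 32.2 to 47.3), in 0.663% of Deiters-like cells and in 0.134% of 744 HCs with high Ccer2, which serve as a background from free RNA. S100b was found in 67.4%, 12.3% and 0.538% of these classes, Smagp in 55.2%, 18.9% and 0.538%, and Igfbpl1 in 59.3% and 9.12% of IPCs and Deiters-like cells and in 0 of 744 HCs (exact upper bound 0.495% of cells with a thinned UMI). Without thinning, 86.0% of IPCs had a UMI of Ngfr, 87.2% of S100b and 92.4% of Smagp. The exact intervals and bounds of this paragraph pool the cells of 4 libraries. They cover counting error only, not the spread between libraries. Ccbe1 was sparse, since 4.65% of thinned IPCs (14.0% unthinned) held it, but 0 of 603 Deiters-like cells and 0 of 744 HCs did, thinned or not. The exact upper bounds after thinning were 0.61% and 0.495%. Such bounds are on cells with a UMI found, and thinning misses many cells that hold a sparse gene.

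Markers of cells from outside the epithelium were low, and those of HCs were below the level of all other P1 cells but overlapped that of Deiters-like cells. The summed level of 12 HC markers, without Ccer2 and Myo6, which the gate capped, ranged from 382.5 to 580.2 UMIs per 1000000 (CPM) over the 4 libraries in IPCs, from 186.4 to 603.2 in Deiters-like cells and from 1160 to 1555 in all other P1 cells, and Myo7a and Gfi1 were at 0 in IPCs. The 6 mesenchyme markers summed to between 0 and 5.401 CPM, the 5 glia markers to between 11.81 and 31.8 CPM and the 8 blood and immune markers to between 0 and 4.459 CPM, with 7 of the 8 at 0. Of the Deiters cell genes, 8 summed to 806.2 to 2567 CPM in IPCs, 1486 to 2593 in Deiters-like cells and 224.4 to 484.6 in all other P1 cells, with Prss23 left out because it chose the Deiters-like cells. The 7 medial duct markers summed to 4013 to 5745 CPM in IPCs, most of it Tectb, a gene that is also on the pillar list, and the other 6 to 507.2 to 665.1 CPM in IPCs, 587.1 to 1090 in Deiters-like cells and 4411 to 6402 in all other P1 cells. The neuron list summed to 298.4 to 690.2 CPM, nearly all of it Isl1, and Snap25 and Prph were at 0. Scrublet, which scores cells by simulated doublets, marked 2, 1, 1 and 0 IPCs in replicates 1 to 4, but it marked only 0.143% of the cells of replicate 4 and has not worked there. Pairs of P1 libraries shared between 5 and 27 cell barcodes.

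**Figure D1:**
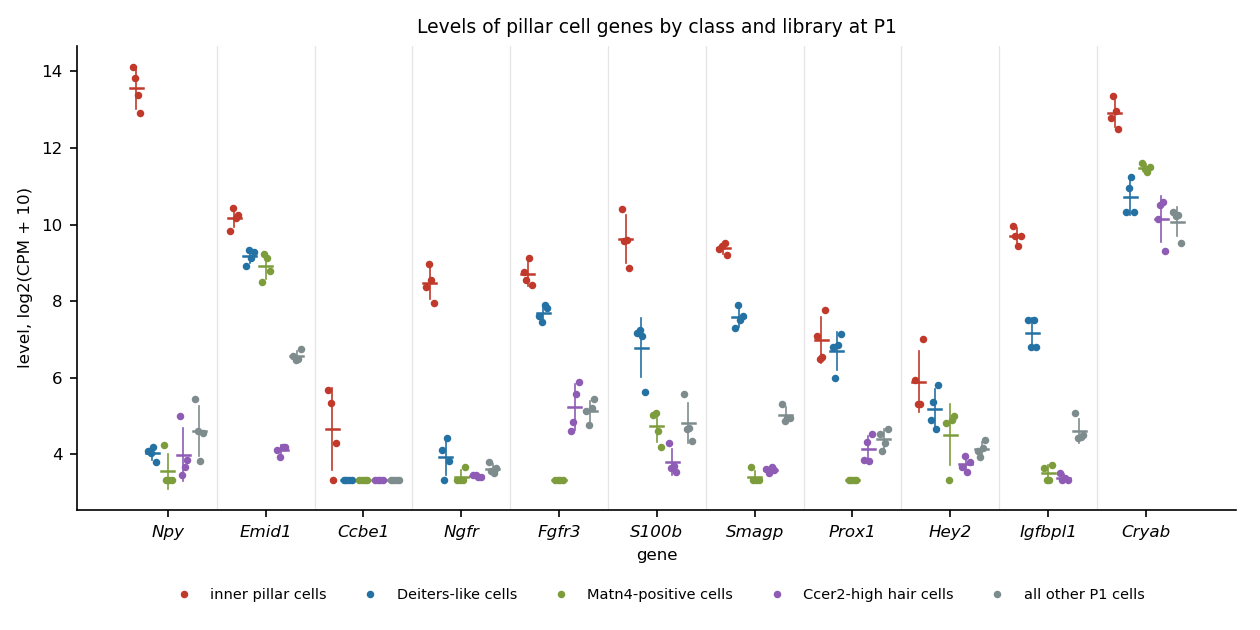
Levels of 11 genes at P1 as log2(CPM + 10) in IPCs, Deiters-like cells, Matn4-positive cells, HCs with high Ccer2 and all other P1 cells, with 1 point per library, the mean as a bar and the SD as a line (n = 4). Ngfr lies between 239.4 and 493.9 CPM in IPCs and at or below 11.52 CPM in Deiters-like cells, while Prox1 and Hey2 overlap between these classes.

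Npy itself, which chose the cells and was therefore not tested, reached 17850, 14480, 10690 and 7668 CPM in the IPCs of replicates 1 to 4, a mean of 12670 ± 4436 (SD, n = 4). It was 7.024, 6.296, 8.263 and 3.911 CPM in Deiters-like cells and 33.11, 14.53, 4.201 and 13.49 CPM in all other P1 cells. Replicate 1 was 2.33 times as high as replicate 4, and every library of IPCs lay far above every library of the other classes, as the gate requires. Within IPCs, single cells ranged from 2113 to 49880 CPM in replicate 1, from 2149 to 31350 in replicate 2, from 2435 to 23480 in replicate 3 and from 1929 to 29700 in replicate 4. The ratio of variance to mean of thinned UMIs was 7.19, 7.85, 5.32 and 5.08 for Npy in replicates 1 to 4, against medians of 1.18, 1.14, 1.15 and 1.17 over 145 genes with a mean of at least 1 UMI. The small heat shock protein gene Cryab had 2.30, 1.99, 2.69 and 1.86. This ratio can depend on the mean, which was 11.5 to 26.1 thinned UMIs for Npy, and the gate cut off low values of Npy. The ratios are therefore a description.

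The threshold cut through a thin tail. Of 183 cells with Npy at 3.0 or more, 11 were left out, all 11 by Myo6 and 1 of them also by Ccer2, and Oc90 left out 0. The lowest values inside were 3.010, 3.083 and 3.097, and the highest outside were 2.909, 2.966 and 2.992. The bin from 2.5 to 3.0 held 13 cells, 12 of them from replicate 4, and the bin from 2.0 to 2.5 held 13, none from replicate 1. By contrast, 335 of the 457 other P1 cells with a UMI of Npy came from replicate 1, where the gene was most abundant in IPCs, and the bins from 0.5 to 1.5 held most of them. Mean Ngfr was 0.83 CPM in the bin from 0.5 to 1.0, 126.4 from 2.0 to 2.5, 276.5 from 2.5 to 3.0 and 292.2 from 3.0 to 3.5, and Emid1 was 140.7, 571.1, 656.9 and 827.8 CPM in the same bins. Cells just under the threshold had these genes near the levels of those just above it. S100b was 151.6 CPM in the bin from 3.0 to 3.5, 702.5 from 4.0 to 4.5 and 1580 from 5.5 to 6.0, where 6 of the 11 cells came from replicate 1. The bins hold different mixes of libraries, with replicate 1, the highest for S100b, in the upper bins and replicate 4, the lowest, in the lower ones, and the part of this in the difference was not tested.

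**Figure D2:**
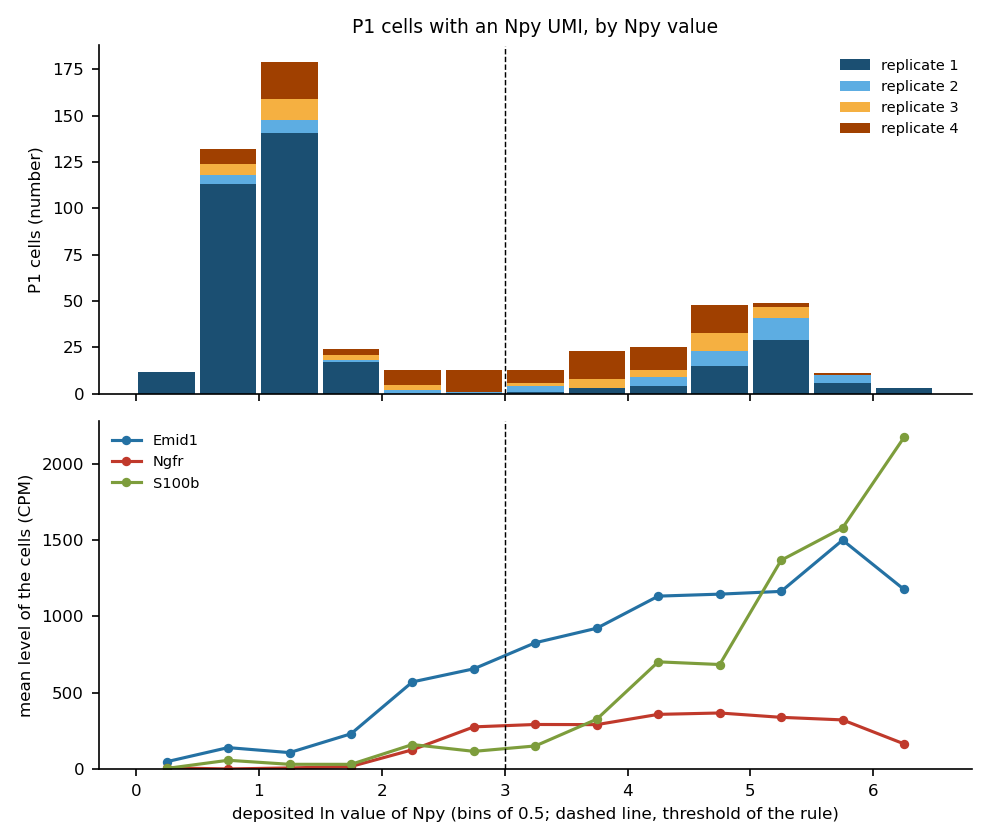
P1 cells that met the other 3 criteria and held a UMI of Npy, in bins of 0.5 of the deposited Npy value (natural log), as the number of cells by replicate (upper panel) and the mean level of Emid1, Ngfr and S100b in CPM (lower panel), with the threshold as a dashed line. Replicate 1 has most of the cells at low values, each bin from 2.0 to 3.5 holds 13 cells, and S100b is 151.6 CPM in the bin from 3.0 to 3.5 and 1580 CPM in the bin from 5.5 to 6.0.

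Against all other P1 cells, Igfbpl1, Ngfr and S100b rose and Mia, Epyc and Cnmd fell with the largest differences when Gm-numbered, Rik, mitochondrial, ribosomal and hemoglobin genes are set aside. The test covered 8695 genes, of which 1011 (11.6%) were higher and 1147 (13.2%) lower (limma's adjusted p under 0.05), 24.8% in all, around a median difference of −0.02 on the log2(CPM + 10) scale. Where each class was instead averaged over the deposited natural log values, 1453 genes were higher and 753 lower, so that the share of higher genes among those called moved from 46.8% to 65.9%. Because the cells were gated on Npy in the same libraries, genes that follow Npy had to differ, and the test asks only whether a difference repeats over the 4 libraries. Fold changes on this scale understate the change of genes with low levels.

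Among the same genes the 15 largest rises were Igfbpl1 (an insulin-like growth factor binding protein-like gene), Ngfr, S100b (a calcium-binding protein of glia and SCs), Smagp, Etv4 (a transcription factor downstream of FGF receptors), Cep41, Pkd2l1 (a cation channel), Ace (angiotensin-converting enzyme), Mdm1 (a microtubule-binding protein), Fam159b, Emid1, Fgfr3, Ramp3 (a partner of calcitonin-family receptors), Ptprz1 (a receptor phosphatase) and Npnt (nephronectin, a matrix ligand of integrins). Igfbpl1 (chr4:45809468-45826923) had 984.8, 817.7, 687.9 and 825.9 CPM in the IPCs of replicates 1 to 4 and 23.98, 11.53, 11.99 and 12.62 CPM in other cells, a log2 difference of 5.08 ± 0.15 (SE; limma's adjusted p = 3.12e-17). Ngfr had 321.6, 493.9, 365.9 and 239.4 CPM against 3.795, 1.726, 1.389 and 2.36, a difference of 4.85 ± 0.21 (adjusted p = 1.48e-14). The lowest IPC library of either gene was far above the highest of the others. S100b (chr10:76253853-76261159) had 1351, 750.8, 763.6 and 458.1 CPM against 37.65, 15.46, 15.86 and 10.31 (4.79 ± 0.15, adjusted p = 5.53e-17), with replicate 1 highest and replicate 4 lowest in both classes. Emid1 (chr11:5106265-5152257), a secreted protein with a collagen-like stretch, had 904.5, 1365, 1148 and 1203 CPM against 84.18, 77.80, 78.94 and 96.68, and rose by 3.61 ± 0.13 (adjusted p = 3.07e-16). Smagp (chr15:100621339-100636940), a small membrane glycoprotein, rose by 4.36 and Ace by 3.93, and groups did not overlap for any gene of this paragraph. A gene was tested when its mean over both classes was at least 10 CPM. Ngfr, Etv4, Pkd2l1, Ace and Ptprz1 had lower means than that in the other cells. They passed this filter through their IPC level, which left a rise as the outcome.

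The falls with the largest differences were Mia, Epyc, Cnmd, Gsn, Lum, Crabp1, Clu, Rgcc, Calb1 and H19. With an IPC mean of 6.295 CPM, H19 passed the filter through the other cells, which left a fall as the outcome. Clu, the secreted chaperone clusterin, had 1238, 518.7, 739.4 and 1309 CPM in IPCs of replicates 1 to 4 and 15380, 21380, 17770 and 21590 CPM in all other P1 cells, and fell by 4.39 on the log2 scale (limma's adjusted p = 2.13e-16). Epyc, a small proteoglycan of the medial duct, fell by 5.01, Lum, another small proteoglycan, by 4.79 and the calcium buffer Calb1 by 4.22. Mia fell by 5.23, but from levels that differed widely, 694.7, 29.63, 100.7 and 179.3 CPM in IPCs against 11400, 5261, 3932 and 4956. Replicate 1 of the IPCs, the highest for Mia, was still below every library of the other cells.

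Fewer genes were called against Deiters-like cells than against all other P1 cells. The Deiters-like profiles rest on fewer cells and their gate required Emid1, so the counts do not rank how alike the classes are. IPCs were higher for 391 (4.57%) and lower for 579 (6.77%) of the 8553 genes tested (limma's adjusted p under 0.05), 11.3% in all, around a median of −0.03. On the mean of the deposited log values the split was 601 higher and 469 lower, 56.2% higher instead of 40.3%. Both comparisons use the same 4 IPC profiles. With the same genes set aside, the rises with the largest differences were Ngfr, Npnt, Etv4, Ace, St6galnac2 (a sialyltransferase), Lama2 (a laminin chain), Vstm4, Lgr6 (an R-spondin receptor), S100b, Map4 (a microtubule-associated protein), Lmcd1, Ccnd1 (cyclin D1), Anks1b, Mdm1 and Igfbp4. Ngfr had 7.375, 0, 11.52 and 4.094 CPM in the Deiters-like cells of replicates 1 to 4, which is 4.55 ± 0.25 below the IPCs on the log2 scale (adjusted p = 4.2e-13). Npnt had 286.4, 298.3, 294.3 and 300.0 CPM in IPCs and 27.77, 14.43, 4.480 and 23.76 CPM in Deiters-like cells, a difference of 3.56 ± 0.22 (adjusted p = 5.6e-12), and its IPC level was almost the same in all 4 libraries. Lgr6 had 62.11, 111.4, 58.88 and 97.08 CPM against 0.491, 2.282, 3.687 and 1.729 (2.90 ± 0.28, adjusted p = 1.82e-08). For these 3 genes every library of IPCs was above every library of Deiters-like cells.

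The falls against Deiters-like cells with the largest differences were Cox4i2 (a cytochrome oxidase subunit), Pdzk1ip1, Gsn (gelsolin, which severs actin), Mia, Dkk3, Gjb6 (connexin 30), Egfl6, Sparcl1, Cnmd and Fabp7. Cox4i2 had 15.51, 4.490, 16.46 and 8.896 CPM in IPCs and 481.8, 479.1, 598.1 and 241.9 CPM in Deiters-like cells, and fell by 4.40 (SE 0.21, limma's adjusted p = 5.13e-14). Gsn fell by 4.29, Dkk3 by 4.03 and Sparcl1 by 3.72. The groups did not overlap for Cox4i2. Pdzk1ip1 fell by 4.34 but its Deiters-like level ran from 39.28 CPM in replicate 4 to 1175 CPM in replicate 1. Pdzk1ip1 (8.115 CPM) and Egfl6 (2.823 CPM) had IPC means under the filter of 10 CPM. They passed it through Deiters-like cells, which left a fall as the outcome. Although the Deiters-like cells were chosen to lack Matn4, the inner phalangeal cell markers, Fabp7 and Gjb6 among them, summed to 1033, 648.3, 415.4 and 576.7 CPM in these cells, above the 554.2, 346.5, 360.0 and 408.6 CPM of all other P1 cells in each library, and their part in the falls was not tested.

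**Figure D3:**
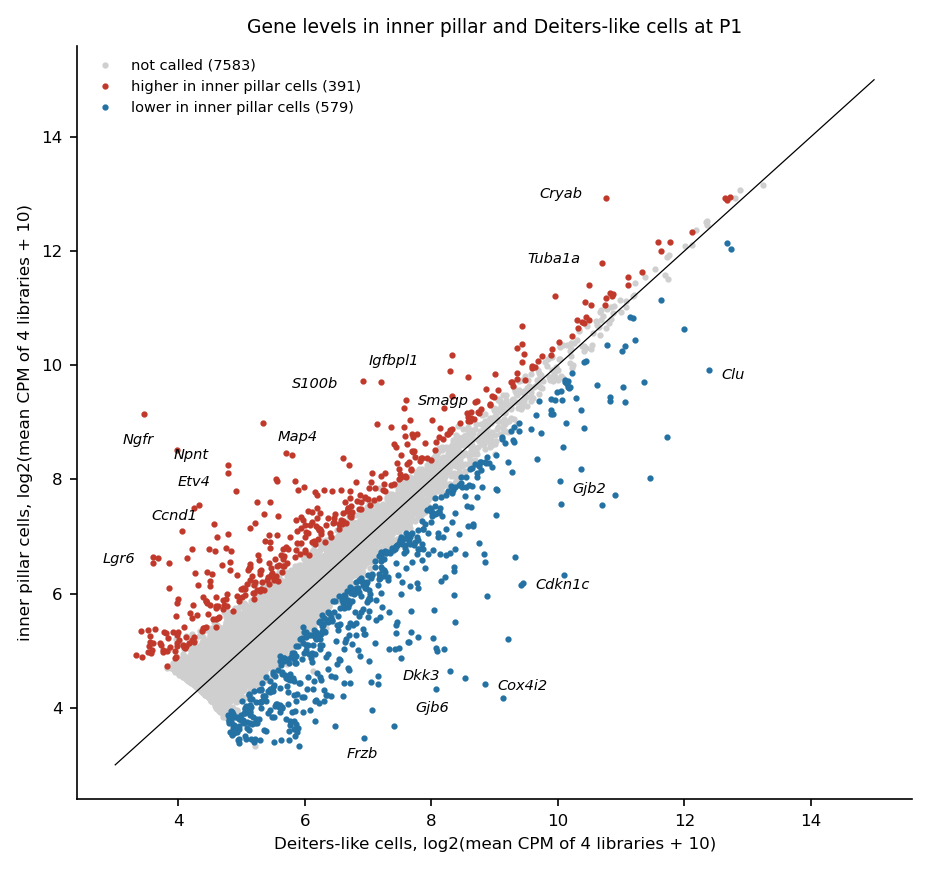
Mean levels of the 8553 genes tested, as log2(mean CPM + 10) over 4 libraries, in Deiters-like cells (horizontal) and IPCs (vertical), with the line of equal levels. Red points are the 391 genes higher and blue points the 579 genes lower in IPCs, and the names are among the genes described here.

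Of the 18 genes fixed as pillar cell genes, 16 were tested against all other P1 cells, of which 15 rose and 1 fell (limma's adjusted p under 0.05), with a median of 2.15 beside −0.02 over all genes (11.6% rose and 13.2% fell). Several of the pillar genes were first proposed as markers from these samples, so that the count is not independent evidence of their direction. Nefm, a neurofilament, was the gene that fell. Its IPC mean was 1.773 CPM, so it passed the filter of a mean of 10 CPM through the other cells. Mal stayed under that filter. Ngfr, Hey2 and Ccbe1 passed it through their IPC level, which left a rise as the outcome. Ccbe1, a secreted matrix-binding protein, had 41.51, 30.30, 0 and 9.717 CPM in IPCs, 0 in all 4 libraries of Deiters-like cells, and 0, 0, 0 and 0.111 CPM in other P1 cells. Its adjusted p was 0.00331 against all other cells and 0.0116 against Deiters-like cells. The difference rests on replicates 1, 2 and 4, its size depends on the constant of 10 CPM, and neither comparison called it with a constant of 1 CPM (adjusted p = 0.0858 and 0.198). Without replicate 1 or replicate 2 it stayed under the filter, which it passed through its IPC level alone, and with all genes kept in it was not called (adjusted p = 0.113 and 0.129), nor against Deiters-like cells after thinning (adjusted p = 0.0798).

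Against Deiters-like cells 7 of the 14 pillar genes tested rose, Ccbe1 with the limits just given among them, 1 fell and 6 were not called, with a median of 0.86 beside −0.03 over all genes (4.57% rose and 6.77% fell). The 7 were Ngfr, S100b, Cryab, Smagp, Ccbe1, Tubb2b and Fgfr3. Ngfr, like Ccbe1, passed the filter through its IPC level. Cryab had 7079, 10450, 8019 and 5746 CPM in IPCs and 1264, 1981, 2399 and 1269 CPM in Deiters-like cells (2.19 ± 0.09, adjusted p = 5.87e-15). S100b had 133.7, 142.8, 125.8 and 39.34 CPM in Deiters-like cells, 2.83 ± 0.16 below the IPCs (adjusted p = 9.45e-13), and Smagp had 643.4, 684.2, 722.1 and 579.2 CPM in IPCs against 145.9, 227.4, 171.1 and 186.8 (1.80 ± 0.14, adjusted p = 1.93e-10). The groups did not overlap for these genes. S100a1, another S100 protein, went the other way: it had 2303, 1540, 1307 and 1177 CPM in IPCs and 5275, 4430, 4476 and 2031 CPM in Deiters-like cells (−1.31, adjusted p = 9.06e-10), although it was above the level of all other P1 cells (1.04, adjusted p = 1.44e-08).

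The 6 pillar genes not called against Deiters-like cells were Prox1, Sox2, Hey2, Lfng, Tectb and Cdkn1b, which encode transcription factors of SCs (Prox1, Sox2 and the Fgf-dependent Hey2), a modifier of Notch, β-tectorin and a cell cycle inhibitor. Prox1 had 126.7, 79.44, 83.40 and 209.8 CPM in IPCs, 101.1, 53.61, 105.4 and 131.2 in Deiters-like cells and 13.16, 7.020, 9.703 and 15.26 in all other P1 cells. It was therefore 2.58 ± 0.22 above other P1 cells (limma's adjusted p = 1.87e-09), while the libraries of the SC classes overlapped (0.28 ± 0.19, adjusted p = 0.434). Hey2 had 51.42, 30.08, 29.37 and 117.9 CPM in IPCs and 19.95, 31.39, 15.39 and 46.07 CPM in Deiters-like cells, with replicate 4 highest in both (0.70 ± 0.26, adjusted p = 0.0893; called without replicate 2, 0.95, adjusted p = 0.0229). Hey2 was also called on summed UMIs (0.73, adjusted p = 0.0453) and on the mean of the deposited log values (0.21, adjusted p = 0.0264). With the exclusions of the IPC gate put on Deiters-like cells it was called too (0.81, adjusted p = 0.0434). Sox2 differed by 0.32 ± 0.14 (adjusted p = 0.191; called on the mean of the deposited log values, 0.44, adjusted p = 0.011) and Tectb by 0.24 ± 0.10 (adjusted p = 0.122). Tectb was called without replicate 1 (0.34, adjusted p = 0.0392) or 3 (0.37, adjusted p = 0.0347), and on the mean of the deposited log values (1.01, adjusted p = 3.2e-09). A p above the threshold does not show that the levels were equal.

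Of the FGF receptors, Fgfr3 rose and Fgfr1 fell, and the ETS factors Etv1, Etv4 and Etv5 rose. Fgfr3 (chr5:33721674-33737068) had 419.9, 362.9, 548.8 and 331.7 CPM in IPCs, 183.8, 164.6, 230.0 and 214.1 CPM in Deiters-like cells and 24.71, 17.29, 26.63 and 33.14 CPM in all other P1 cells. The lowest IPC library was above the highest Deiters-like library, and the differences were 1.02 ± 0.14 (limma's adjusted p = 9.08e-06) and 3.58 ± 0.17 (adjusted p = 1e-13). The receptor Fgfr1 fell, by 1.28 against Deiters-like cells (adjusted p = 9.8e-05), a gene named after its value was seen, and was not called after thinning to 1500 UMIs (−0.79, adjusted p = 0.329). Of the ETS factors that FGF receptors induce, Etv4 had 223.1, 314.3, 319.9 and 207.1 CPM against 11.38, 21.77, 10.48 and 26.01 in Deiters-like cells (3.35 ± 0.22, adjusted p = 1.45e-11). Etv1 rose by 1.10 (adjusted p = 0.00169) and Etv5 by 1.17 (adjusted p = 0.000823) in the same comparison, the latter without a call after thinning (0.55, adjusted p = 0.658). The ligands Fgf3, Fgf10 and Fgf20 were tested there and not called. Fgf3, a known marker of third-row DCs, had 48.03, 42.34, 45.82 and 103.7 CPM against 46.23, 15.78, 36.82 and 68.52 (0.46 ± 0.24, adjusted p = 0.262; called on the mean of the deposited log values, 0.20, adjusted p = 0.0416). Of 32 FGF pathway genes, 7 rose and 2 fell of 14 tested against all other P1 cells (median 0.76; over all genes 11.6% rose and 13.2% fell), and 4 rose and 1 fell of 15 tested against Deiters-like cells (median 0.28; over all genes 4.57% and 6.77%).

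Tuba1a, Tubb2b and Tuba4a were among the tubulin genes that rose. Of 19 isotypes, 9 were tested, and 5 rose and 1 fell in either comparison (median 0.46 against all other P1 cells and 0.78 against Deiters-like cells), beside 11.6% and 13.2%, and 4.57% and 6.77%, of all genes. Without replicate 1, 3 rose against all other P1 cells. Tuba1a had 6252, 3044, 3139 and 1704 CPM in the IPCs of replicates 1 to 4 and 2829, 1285, 1762 and 721.9 CPM in Deiters-like cells. The ranges overlapped, because replicate 1 was high and replicate 4 low in both classes, and within each library IPCs were higher (1.11 ± 0.09, limma's adjusted p = 4.61e-10). Tubb2b had 1095, 749.9, 1134 and 518.6 CPM against 424.2, 356.0, 466.9 and 240.3, without overlap (1.19 ± 0.12, adjusted p = 2.36e-08). Tuba4a rose by 1.37 (adjusted p = 0.000201; 1.31 and 0.0826 after thinning). Tuba1c was the isotype that fell, by 1.07 (adjusted p = 0.0401), but this call was lost without replicate 2 (−0.52, adjusted p = 0.379), 3 (−1.06, adjusted p = 0.171) or 4 (−1.28, adjusted p = 0.058).

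Other microtubule genes moved in both directions. Of 50 microtubule-associated and tubulin-folding genes, 6 rose and 7 fell of 37 tested against all other P1 cells (median −0.13; over all genes 11.6% rose and 13.2% fell), and 5 rose and 4 fell of 36 tested against Deiters-like cells (median −0.17; over all genes 4.57% and 6.77%). Map4 had 323.7, 308.3, 331.8 and 400.6 CPM in IPCs and 29.83, 44.77, 25.02 and 67.74 CPM in Deiters-like cells (2.82 ± 0.19, adjusted p = 1.43e-11), and Stmn1, which binds free tubulin, had 1311, 1357, 1058 and 844.8 CPM against 369.2, 289.4, 351.0 and 235.7 (1.84 ± 0.12, adjusted p = 1.17e-11). Neither gene overlapped between the classes. Dclk1, a kinase that binds microtubules, fell by 2.09 (adjusted p = 3.57e-06). With an IPC mean of 7.426 CPM, Dclk1 passed the filter through Deiters-like cells, which left a fall as the outcome. Cep41, a centrosomal protein that aids tubulin glutamylation, had 913.7, 429.1, 393.9 and 651.1 CPM against 195.4, 103.6, 120.5 and 301.3 (1.71 ± 0.16, adjusted p = 6.22e-09). The antisense gene Gm13782 lies within it, and the strand used for counting is not given in the sources used here.

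Actin and intermediate filament genes fell more often than they rose. Of 43 such genes, 3 rose and 18 fell of 35 tested against all other P1 cells (median −0.35; over all genes 11.6% rose and 13.2% fell), and 3 rose and 12 fell of 32 tested against Deiters-like cells (median −0.37; over all genes 4.57% and 6.77%). Among those that fell in the comparison with all other P1 cells was the HC bundling protein Espn. Fscn1, which bundles actin, was an exception: it had 149.2, 159.1, 196.3 and 174.5 CPM in IPCs and 34.09, 71.35, 63.81 and 81.76 CPM in Deiters-like cells (1.35 ± 0.19, limma's adjusted p = 1.17e-05), without overlap. Thinned to equal depth, Fscn1 differed by 0.97 (adjusted p = 0.0872).

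**Figure D4:**
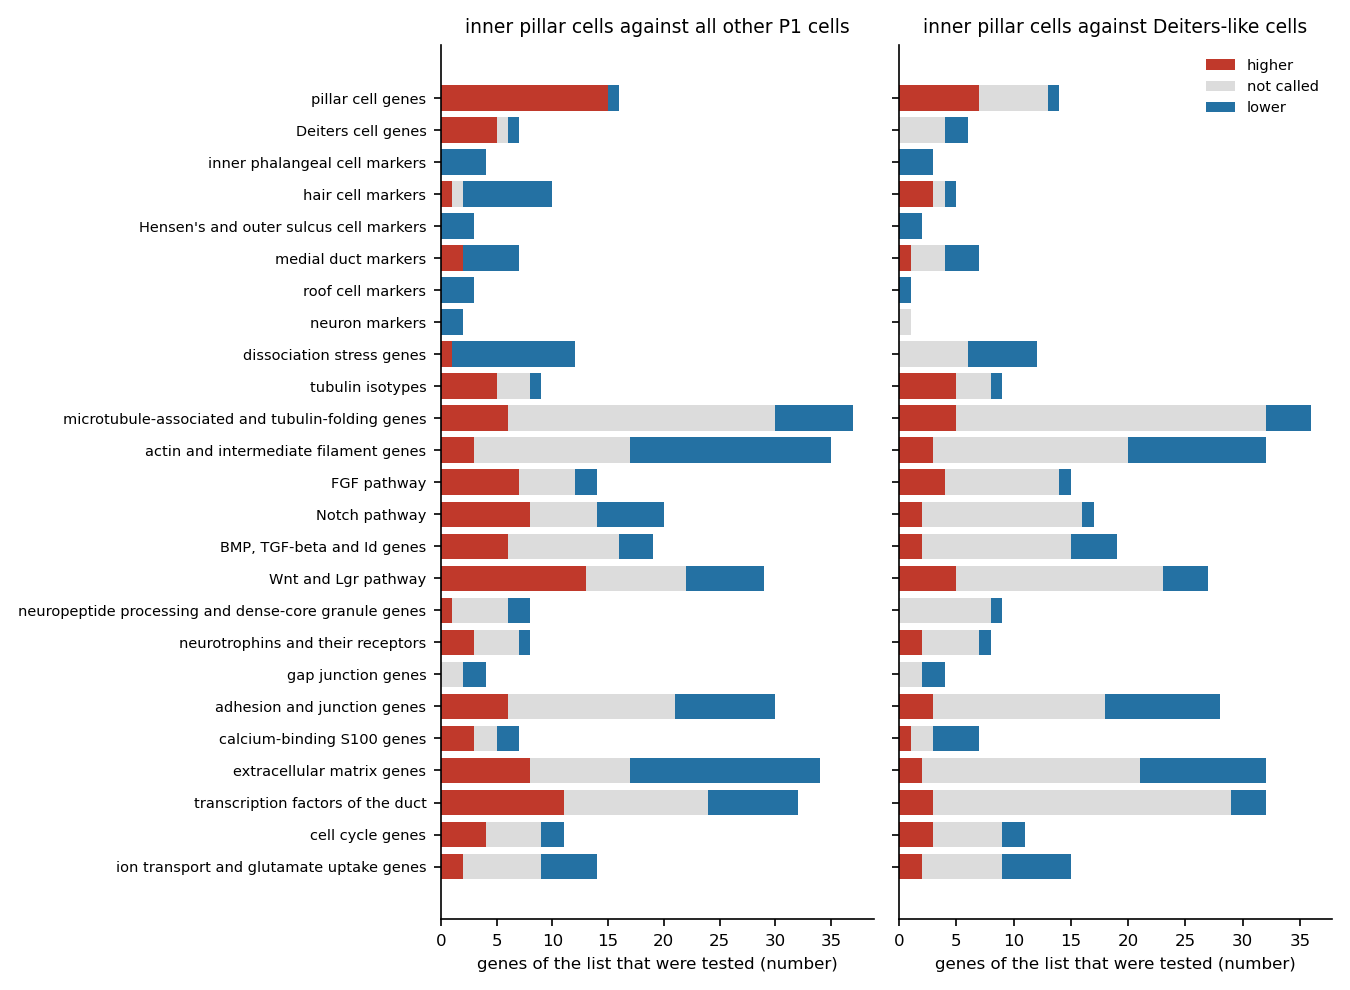
Number of tested genes of each list that were higher (red), not called (grey) or lower (blue) in IPCs against all other P1 cells (left) and against Deiters-like cells (right), by limma's adjusted p under 0.05. The pillar cell genes are nearly all red on the left, with 15 of 16 higher, and 7 of 14 are red on the right. Over all genes 11.6% and 4.57% were higher.

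Npy is a peptide precursor, and the genes that act on such precursors were described as a list of 28. Of its 25 members in the table, 9 were at 0 in all 4 libraries of IPCs: the convertases Pcsk1 and Pcsk2, the granins Scg2, Scg3 and Vgf, and Syt4, Rab27a, Ptprn and Ptprn2, which belong to secretory granules. A count of 0 allows a level of up to 2.30 CPM over the 1305187 UMIs of the 172 cells. Of the 9, Rab27a (2.803 to 6.463 CPM) and Scg3 (7.225 to 10.90 CPM) exceeded that level in every library of all other P1 cells and Scg2 in 3 of 4, while the other 6 lay under it there as well. Cpe, the carboxypeptidase that trims peptide precursors, had 116.5, 71.54, 50.15 and 65.28 CPM in IPCs and 191.2, 124.0, 124.3 and 191.7 CPM in all other P1 cells (−0.99 ± 0.17, limma's adjusted p = 7.56e-05). Its level in Deiters-like cells, 101.1, 35.50, 68.64 and 80.98 CPM, overlapped that of IPCs. Pam, which amidates peptides such as neuropeptide Y, had 29.08, 3.979, 8.790 and 6.024 CPM in IPCs and 15.99, 10.42, 21.81 and 7.324 CPM in Deiters-like cells. Scg5, a chaperone of Pcsk2, had 52.36, 101.3, 52.70 and 56.40 CPM in IPCs and overlapped all other P1 cells.

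Of 8 members of that list tested against all other P1 cells 1 rose and 2 fell (median −0.49), and of 9 tested against Deiters-like cells 0 rose and 1 fell (median −0.21), beside 11.6% and 13.2%, and 4.57% and 6.77%, of all genes. The gene that rose was Dpp4, a surface peptidase that cuts neuropeptide Y, with 82.68, 46.61, 44.96 and 36.34 CPM in IPCs and 19.60, 12.76, 16.27 and 9.248 CPM in all other P1 cells (1.32 ± 0.23, adjusted p = 9.37e-05; 0.67 and 0.514 after thinning), and its level in Deiters-like cells was 56.56, 48.84, 56.38 and 23.76 CPM. Cadps2, which primes dense-core granules, fell by 1.73 against all other P1 cells and by 1.65 against Deiters-like cells. Its IPC mean was 6.839 CPM. Cadps2 therefore passed the filter of a mean of 10 CPM through the other class, which left a fall as the outcome. The receptor Npy1r was at 1.440, 0, 0 and 0 CPM in IPCs.

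Among 16 neurotrophin genes, 3 rose and 1 fell of 8 tested against all other P1 cells (median 0.24; over all genes 11.6% rose and 13.2% fell) and 2 rose and 1 fell of 8 tested against Deiters-like cells (median −0.11; over all genes 4.57% and 6.77%). The receptors that rose in both were Ngfr and Sorcs2, a sortilin-family partner of Ngfr, which had 40.01, 24.21, 27.75 and 8.902 CPM in IPCs and 2.357, 7.651, 6.368 and 6.747 CPM in Deiters-like cells (1.09 ± 0.32, limma's adjusted p = 0.0238). Without replicate 1 or replicate 3 the call for Sorcs2 was lost (0.78, adjusted p = 0.271, and 1.05, adjusted p = 0.115), and that against all other P1 cells was lost without replicate 1 (0.93, adjusted p = 0.055). Against Deiters-like cells it was also lost with all genes kept in (adjusted p = 0.189), with a pseudocount of 1 CPM (adjusted p = 0.075) and after thinning (1.08, adjusted p = 0.386). Ngfr and Sorcs2 passed the filter of a mean of 10 CPM through their IPC level in both comparisons. Of the ligands, Ntf3 had 384.7, 172.5, 308.2 and 317.0 CPM in IPCs, 431.2, 230.8, 249.4 and 330.3 CPM in Deiters-like cells and 114.7, 70.43, 88.67 and 123.6 CPM in all other P1 cells. It rose by 1.46 (adjusted p = 3.25e-08) against all other P1 cells, while the SC classes overlapped (−0.08 ± 0.14, adjusted p = 0.801) and the sign of their difference changed without replicate 2 (0.03). Bdnf, an HC ligand at this age, had 7.163, 4.490, 21.17 and 2.854 CPM in IPCs and fell by 1.64 against all other P1 cells (adjusted p = 6.77e-05). With an IPC mean of 8.919 CPM it passed the filter through the other cells, which left a fall as the outcome.

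The Notch target Hes5 rose against all other P1 cells, and another target, Heyl, fell. Of 29 Notch pathway genes, 8 rose and 6 fell of 20 tested against all other P1 cells (median 0.12; over all genes 11.6% rose and 13.2% fell), and 2 rose and 1 fell of 17 tested against Deiters-like cells (median −0.21), where 4.57% and 6.77% of all genes did. Without replicate 2, 4 fell in the latter. Hes5, a Notch target of SCs, had 384.5, 1259, 1411 and 2077 CPM in IPCs, 1009, 1055, 1167 and 2041 CPM in Deiters-like cells and 170.1, 204.6, 128.6 and 349.5 CPM in all other P1 cells (against all other P1 cells 2.4 ± 0.20, limma's adjusted p = 1.44e-09, and against Deiters-like cells −0.21 ± 0.16, adjusted p = 0.521). Replicate 1 was the lowest IPC library for Hes5 and lay below every Deiters-like library, and without it the difference from Deiters-like cells was 0.18 (adjusted p = 0.43). Lfng differed by −0.42 ± 0.16 from Deiters-like cells (adjusted p = 0.0917), but was called without replicate 2 (−0.59, adjusted p = 0.0143), with Deiters-like cells of Prss23 at 2.5 or more (−0.75, adjusted p = 0.00585) and without cells of over 3000 genes (−0.55, adjusted p = 0.0487). Heyl, another target, had 3.744, 0, 0 and 57.02 CPM in IPCs against 70.62, 64.55, 101.3 and 139.1 (−2.52 ± 0.30, adjusted p = 8.06e-07).

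Among Wnt genes, the receptor Lgr6 rose and the secreted inhibitors Sfrp1, Sfrp2, Frzb and Dkk3 fell in both comparisons, while Wif1, also a secreted inhibitor, rose in both. Of 49 genes, 13 rose and 7 fell of 29 tested against all other P1 cells (median 0.35; over all genes 11.6% rose and 13.2% fell), and 5 rose and 4 fell of 27 tested against Deiters-like cells (median 0.32; over all genes 4.57% and 6.77%). After thinning these counts were 5 and 7, and 1 and 3, and without replicate 4 the rises against Deiters-like cells were 3. Lgr6 rose in both, while its relative Lgr5 had 104.6, 86.53, 109.0 and 137.4 CPM in IPCs and 48.95, 83.14, 107.4 and 71.59 CPM in Deiters-like cells (0.47 ± 0.21, limma's adjusted p = 0.166). The inhibitor Sfrp1 had 117.7, 192.8, 134.4 and 267.8 CPM in IPCs and 1010, 1673, 1949 and 1967 CPM in Deiters-like cells, a fall of 3.16 (SE 0.14, adjusted p = 5.87e-15). Frzb was found in replicate 3 of the IPCs, at 4.510 CPM, and was at 0 in the other 3, against 97.66, 136.9, 165.5 and 47.40 CPM in Deiters-like cells. With an IPC mean of 1.127 CPM, Frzb passed the filter through the other class, which left a fall as the outcome. Lgr6 passed it through its IPC level in both comparisons, which left a rise. Dkk3 had 14.95, 8.334, 4.510 and 23.86 CPM against 202.8, 433.6, 369.2 and 436.5, and Sfrp1, Frzb and Dkk3 did not overlap between the classes. Sfrp2 and Wif1 are named after their values were seen: Sfrp2 fell by 1.57 (adjusted p = 9.21e-05; −0.81 and 0.476 after thinning) and Wif1 rose by 1.52 (SE 0.30, adjusted p = 0.000743) against Deiters-like cells. Against all other P1 cells Wif1 rose by 0.96 (adjusted p = 0.00725), a call lost without replicate 1 (0.79, adjusted p = 0.0956).

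Of 34 BMP, TGF-β and Id genes, 6 rose and 3 fell of 19 tested against all other P1 cells (median 0.35; over all genes 11.6% rose and 13.2% fell), and 2 rose and 4 fell of 19 tested against Deiters-like cells (median 0.02; over all genes 4.57% and 6.77%). Bmp7 had 88.97, 99.00, 184.2 and 106.3 CPM in IPCs and 38.19, 39.40, 27.22 and 27.91 CPM in Deiters-like cells, without overlap (1.55 ± 0.23, limma's adjusted p = 2.57e-05; 1.24 and 0.0636 after thinning). Fstl1, a secreted follistatin-like protein, had 715.6, 650.9, 680.9 and 1239 CPM against 2626, 2362, 2148 and 3364 (−1.70 ± 0.10, adjusted p = 9.61e-13). Inhba, an activin subunit, rose by 2.59 against all other P1 cells (adjusted p = 3.18e-09).

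The connexin genes Gjb2 and Gjb6 fell. DCs and other SCs are coupled by connexins 26 and 30, and both genes fell of the 4 gap junction genes tested in either comparison. Over all genes 13.2% fell against all other P1 cells and 6.77% against Deiters-like cells. Gjb2 (connexin 26) had 236.3, 171.6, 225.3 and 333.3 CPM in IPCs and 1044, 1025, 928.6 and 1167 CPM in Deiters-like cells (−2.10 ± 0.13, limma's adjusted p = 3.55e-12). Gjb6 (connexin 30) had 14.19, 0, 3.389 and 22.63 CPM against 222.2, 236.8, 185.8 and 391.0 (−3.84 ± 0.24, adjusted p = 3.55e-12). Every IPC library was below every Deiters-like library, and also below every library of all other P1 cells, for both connexins.

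Matrix genes and, against Deiters-like cells, adhesion genes fell more often than they rose. Of 36 adhesion and junction genes, 6 rose and 9 fell of 30 tested against all other P1 cells (median −0.15; over all genes 11.6% rose and 13.2% fell; 10 and 8 on the mean of the log values), and 3 rose and 10 fell of 28 tested against Deiters-like cells (median −0.31; over all genes 4.57% and 6.77%). The tight junction gene Cldn3 had 143.9, 136.2, 185.0 and 161.5 CPM in IPCs and 448.6, 689.8, 547.3 and 343.6 CPM in Deiters-like cells (−1.60 ± 0.16, limma's adjusted p = 3.82e-08), and the integrin Itga8 fell by 2.44 (adjusted p = 6.4e-09). Nectin3, a cell adhesion molecule, rose by 0.89 (adjusted p = 0.00201), from 43.85, 42.98, 66.40 and 112.1 CPM in Deiters-like cells to 107.0, 95.64, 123.0 and 180.6 CPM in IPCs, and was not called after thinning (0.59, adjusted p = 0.504). Of 45 extracellular matrix genes, 8 rose and 17 fell of 34 tested against all other P1 cells (median −0.33), and 2 rose and 11 fell of 32 tested against Deiters-like cells (median −0.25). Over all genes falls also outnumbered rises (13.2% and 11.6%, and 6.77% and 4.57%), which are the shares to set beside the S100 genes below too. The proteoglycan Dcn fell by 4.0 and by 2.88 in the 2 comparisons. S100 genes were divided: of 11, 3 rose and 2 fell of 7 tested against all other P1 cells (median 0.31), and S100b rose while 4 fell of 7 tested against Deiters-like cells (median −0.56), among them S100a6 (−2.03, adjusted p = 8.58e-08).

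Ion transport genes fell more often than they rose against Deiters-like cells. Of 25 genes, 2 rose and 5 fell of 14 tested against all other P1 cells (median 0.08; over all genes 11.6% rose and 13.2% fell; 4 and 4 on the mean of the log values), and 2 rose and 6 fell of 15 tested against Deiters-like cells (median −0.27), where falls also outnumbered rises over all genes (6.77% and 4.57%). Atp1b1, a subunit of the sodium pump, had 129.6, 39.06, 73.99 and 91.27 CPM in IPCs and 489.4, 510.8, 413.1 and 384.9 CPM in Deiters-like cells (−2.39 ± 0.20, limma's adjusted p = 8.41e-10). The chloride channel Ano1 fell by 2.38 (adjusted p = 5.1e-07). With an IPC mean of 3.64 CPM, Ano1 passed the filter through Deiters-like cells, which left a fall as the outcome. The potassium channel Kcnj10 went up, with 40.28, 25.27, 54.38 and 75.34 CPM against 16.96, 0, 7.306 and 22.57 (1.5 ± 0.28, adjusted p = 0.000398; 1.71 and 0.0636 after thinning).

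Cyclin D1 rose and the inhibitor Cdkn1c fell against Deiters-like cells. Of 25 cell cycle genes, 4 rose and 2 fell of 11 tested against all other P1 cells (median 0.11; over all genes 11.6% rose and 13.2% fell), and 3 rose and 2 fell of 11 tested against Deiters-like cells (median −0.16; over all genes 4.57% and 6.77%; 1 rose without replicate 1 or 2). Ccnd1 had 131.0, 172.5, 138.0 and 116.2 CPM in IPCs and 23.79, 4.965, 6.010 and 19.98 CPM in Deiters-like cells (2.74 ± 0.27, limma's adjusted p = 1.83e-08), and Cdk6, a partner of cyclin D, rose by 1.18 (adjusted p = 0.0202), a call lost without replicate 1 (1.15, adjusted p = 0.0742), 2 (0.96, adjusted p = 0.111) or 3 (0.94, adjusted p = 0.193). The inhibitor Cdkn1c had 134.2, 43.47, 38.79 and 35.49 CPM in IPCs and 1050, 876.8, 596.8 and 223.5 CPM in Deiters-like cells (−3.23 ± 0.20, adjusted p = 4.45e-12), while Cdkn1b, the inhibitor known from SCs, was not called (−0.16 ± 0.19, adjusted p = 0.702). The S and M phase gene Ccna2 was at 0 in IPCs, as were Cdkn2a and Cdkn2c. Mki67, Top2a, Cdk1, Ccnb1, Ccnb2, Ube2c and Birc5 were found in IPCs but stayed under the filter.

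All 4 inner phalangeal cell markers, all 3 Hensen's cell markers and all 3 roof cell markers that were tested fell against all other P1 cells (limma's adjusted p under 0.05; medians −2.24, −2.67 and −2.77), and 3 of 3, 2 of 2 and 1 of 1 fell against Deiters-like cells. Over all genes 11.6% rose and 13.2% fell in the former comparison, and 4.57% and 6.77% in the latter. Matn4 (9.434 CPM), Pmch (3.99), Fst (2.151), Gata2 (5.094), Vmo1 (1.498) and Ttr (0.615) had IPC means under the filter of 10 CPM. They passed it through the other class, which left a fall as the outcome. The same holds for Nefl (0.5098) and the HC markers Pvalb (3.726), Pou4f3 (0.619) and Lhfpl5 (2.543), counted below. Of 7 medial duct markers, 5 fell and 2 rose against all other P1 cells (median −4.0), the latter being the tectorial membrane genes Tectb and Otog, and 3 fell and 1 rose of 7 tested against Deiters-like cells (median −0.30; 2 and 2 on the mean of the log values). Of 10 Deiters cell genes, 5 rose and 1 fell of 7 tested against all other P1 cells (median 1.45), and 0 rose and 2 fell of 6 tested against Deiters-like cells (median 0.10; 1 and 1 on the mean of the log values). Of 6 neuron markers, 2 fell of 2 tested against all other P1 cells (median −1.09; 1 without replicate 1 or 3) and 0 of 1 against Deiters-like cells. Of 14 HC markers, 8 fell and 1 rose of 10 tested against all other P1 cells (median −2.25).

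Against Deiters-like cells, 3 of 5 HC markers tested rose and 1 fell (median 1.04; over all genes 4.57% rose and 6.77% fell), and the 3 are named here after their values were seen. Cd164l2, a membrane protein gene, had 232.2, 200.6, 219.8 and 237.7 CPM in IPCs, 56.30, 62.81, 23.65 and 71.04 CPM in Deiters-like cells and 85.23, 80.93, 83.59 and 87.67 CPM in all other P1 cells (1.95 ± 0.20, limma's adjusted p = 6.86e-08 against Deiters-like cells). Rprm, known as a cell cycle arrest gene, had 215.8, 116.6, 165.2 and 160.4 CPM against 103.8, 41.83, 23.47 and 54.94 in Deiters-like cells (1.51 ± 0.22, adjusted p = 9.57e-06). Atoh1, the factor that makes HCs, had 20.13, 16.91, 19.36 and 41.35 CPM against 10.84, 2.420, 1.984 and 12.08 (1.04 ± 0.30, adjusted p = 0.0194). The call for Atoh1 was lost without replicate 3 (0.95, adjusted p = 0.0959) or 4 (0.98, adjusted p = 0.103) and after thinning (0.43, adjusted p = 0.802). It was also lost with all genes kept in (adjusted p = 0.132) and without cells of over 3000 genes (0.64, adjusted p = 0.421). Atoh1 passed the filter of a mean of 10 CPM through its IPC level. The libraries did not overlap for these 3 genes. Other members of the list, chosen after their values were seen, were Myo7a and Gfi1 at 0, Pvalb at 4.185, 0, 0 and 10.72 CPM and Pou4f3 at 0, 0, 0 and 2.476 CPM. The part of HC RNA in these differences was not tested.

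Of 48 transcription factors of the duct, 11 rose and 8 fell of 32 tested against all other P1 cells (median 0.22; over all genes 11.6% rose and 13.2% fell), and 3 rose and 3 fell of 32 tested against Deiters-like cells (median 0.03; 1 rose without replicate 3), near the 4.57% and 6.77% of all genes. The 3 that rose in the latter were Zfhx3, Sox11 and Tcf4, and the 3 that fell were Klf4, Sox21 and Zbtb20, all named after their values were seen. The calls were lost for Zfhx3 without replicate 3 (adjusted p = 0.0966), for Tcf4 without replicate 2, 3 or 4 (adjusted p = 0.182, 0.25 and 0.0753) and for Zbtb20 without replicate 1, 2 or 3 (adjusted p = 0.138, 0.133 and 0.0716). Sox11 was not called after thinning (0.77, adjusted p = 0.175). Of 14 genes known to respond to tissue dissociation, 11 fell and 1 rose of 12 tested against all other P1 cells (median −1.04) and 6 fell, 0 rose and 6 were not called of 12 tested against Deiters-like cells (median −0.64), beside the shares of all genes given for the transcription factors. Fos had 152.2, 25.28, 79.23 and 3.016 CPM in IPCs and 619.2, 162.5, 255.4 and 54.88 CPM in Deiters-like cells (−2.03 ± 0.20, limma's adjusted p = 1.73e-08). The list summed to 2039 to 4398 CPM in IPCs, 3337 to 5025 in Deiters-like cells and 4220 to 6165 in all other P1 cells, and its part in the other differences was not tested.

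Applied to the other ages, the gate found few cells at E14 (1 and 5 cells in the 2 libraries, 0.0455% and 0.164%) and a share later on that was below the lowest P1 library in 4 of 5 libraries: 8, 21 and 41 cells at E16 (0.642%, 0.747% and 1.05%) and 15 and 13 cells at P7 (0.845% and 0.811%). The tables of the ages were normalized separately, so levels are set side by side as a description, without a test. Npy was 3726 to 6496 CPM in the gated cells of the 3 E16 libraries, 7668 to 17850 at P1 and 9773 to 11620 at P7. Emid1 was highest at P1, with 390.0 to 580.5 CPM at E16, 904.5 to 1365 at P1 and 548.4 to 651.6 at P7, and Igfbpl1 likewise, with 84.73 to 141.5, 687.9 to 984.8 and 139.9 to 298.2 CPM. Ngfr was 344.0 to 480.0 CPM at E16, 239.4 to 493.9 at P1 and 38.60 to 54.86 at P7. Markers of inner phalangeal cells differed between the ages too: Fabp7 was 0 to 2164 CPM in the gated cells at E16, 0 to 40.62 at P1 and 631.1 to 2027 at P7, and Matn4 was 0 to 27.22, 0 to 22.38 and 47.50 to 252.9 CPM. Their part in the differences between ages was not tested.

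Tuba1a, Map4 and Cep41 lay highest at P7, while Stmn1 did not (554.6 to 1426 CPM at E16, 844.8 to 1357 at P1 and 843.9 to 960.9 at P7) and Tubb2b at P7, 834.5 to 998.3 CPM, lay within its range at P1. Tuba1a was 1514 to 2064 CPM at E16, 1704 to 6252 at P1 and 12530 to 18490 at P7, Map4 was 60.54 to 108.7, 308.3 to 400.6 and 895.4 to 1202 CPM, and Cep41 was 187.8 to 261.6, 393.9 to 913.7 and 2348 to 2453 CPM. S100b (317.3 to 636.3, 458.1 to 1351 and 1149 to 1284 CPM) and Smagp (at most 182.1, 579.2 to 722.1 and 1090 to 1502 CPM) also had their highest mean at P7, though S100b at P1 overlapped both other ages. Several genes not called between IPCs and Deiters-like cells at P1 were lower at P7 than at P1: Hes5 was 384.5 to 2077 CPM at P1 and 89.26 to 108.3 at P7, Prox1 was 79.44 to 209.8 and 0 to 11.05, Ntf3 172.5 to 384.7 and 0 to 9.651, and Tectb 3439 to 5080 and 509.6 to 605.2. Cdkn1b overlapped, with 62.24 to 112.8 and 67.73 to 166.6 CPM. At E16 Hes5 ran from 27.37 to 575.2 CPM, which includes the P7 levels. In gated cells the ranges of P1 and P7 did not overlap for the genes of this paragraph other than S100b, Stmn1, Tubb2b and Cdkn1b. In all other cells Hes5 was lower at P7 too (128.6 to 349.5 CPM at P1, 19.16 to 19.77 at P7). So were Prox1 (7.020 to 15.26 and 2.295 to 3.397) and Ntf3 (70.43 to 123.6 and 14.34 to 22.46). Tectb was higher there at P7 (634.4 to 2260 and 7281 to 9307).

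**Figure D5:**
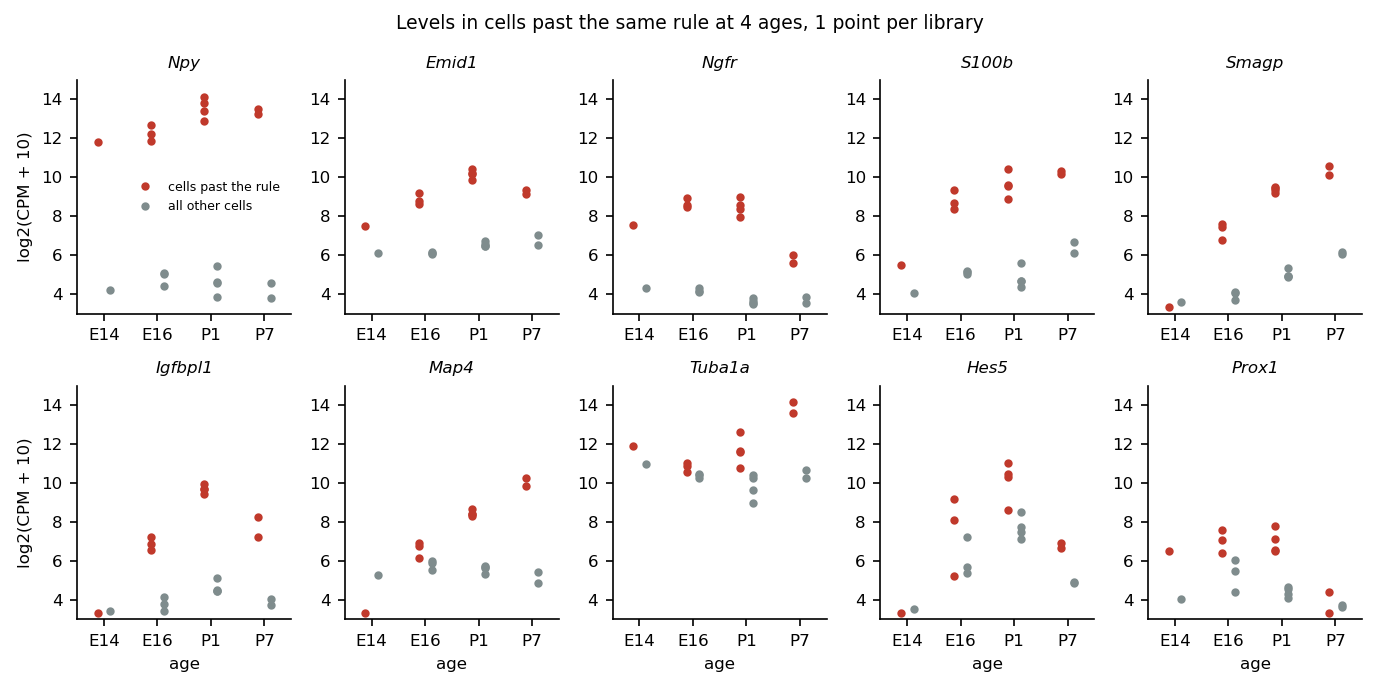
Levels of 10 genes in cells past the gate (red) and in all other cells (grey) at E14, E16, P1 and P7, as log2(CPM + 10), with 1 point per library that had at least 5 gated cells. Ngfr, Hes5 and Prox1 are low in gated cells at P7, while Map4, Smagp and Tuba1a are highest there.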

How the data were processed

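The 11 libraries were droplet 3′ single-cell RNA-seq libraries of dissociated cochlear duct floors. According to the methods, the authors aligned reads to mm10 with Cell Ranger 2.1.1, filtered cells and genes in Seurat 2.0, and deposited 1 table per age of natural log values (each UMI count divided by its cell's total, multiplied by 10000, with 1 added before the log). Back-transformed values gave whole UMIs for 100% of entries within 2%. The methods give limits of 3000 genes and 15000 UMIs per cell, but 1134 P1 cells had over 3000 genes and were kept. Totals per P1 library were 11829392 to 23523802 UMIs. All columns of the tables were used (0 left out). The strand used for counting and the gene annotation are not given in the sources used here, and gene positions are from GRCm38.

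Values were back-transformed to CPM and averaged over the cells of each class in each library. Limma 3.58.1 (R 4.3.3, mean trend) was fitted to log2(CPM + 10) of these mean profiles where a gene averaged 10 CPM or more. Library was a block, and Benjamini-Hochberg adjustment was over all genes tested. Genes used by the rules were left out (Npy, Myo6, Ccer2 and Oc90, and against Deiters-like cells also Prss23, Emid1 and Matn4). The filter takes the mean over both classes, so a gene low in either class can pass through the other, which fixes its direction. Both classes of a comparison come from the same pooled library, and their deviations from the class means correlated within each library (0.366 to 0.636 against all other P1 cells, 0.245 to 0.589 against Deiters-like cells), so the replicates pair the profiles. P-values rest on the spread between these 4 pools, prepared from cells gated on Npy. Limma draws the variance of each gene toward that of other genes of similar level. The SE and p of a gene are therefore not its own spread alone. Both can understate the spread of a gene whose libraries differ widely. The fit was tested on simulated data with 200 changed genes. Cells were thinned to 1500 UMIs for shares of cells with a UMI. Doublets were scored with Scrublet in scanpy 1.11.5 and kept, and intervals were computed with scipy 1.17.1 in Python 3.11.15.

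Genes named in each comparison were those of the rules, the 15 largest rises and 10 largest falls that were called and had the same direction in all 4 libraries (mitochondrial, ribosomal, hemoglobin, Gm-numbered and Rik genes aside), up to 4 called and 2 uncalled members of each list, and any member of the pillar and neuropeptide lists. Other names are said to be chosen after their values were seen. The members and gene lists were chosen with earlier results of these data known. Alternatives covered the block, pseudocount, filter, profile, scaling, thresholds of the rules, doublets, gene number, depth, cells compared with and each library in turn.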

Additional observations from a re-analysis of the deposited data

Results flagged for a closer look

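A gap test over the 4 libraries of IPCs (Dixon's test at the 95% level) was applied to the levels of 99 genes described here, and 8 had a library that stood apart, where chance flags about 1 in 20 groups, or 4.95 of 99. Replicate 1 stood high for 4 genes: Acbd7, an HC-associated gene, with 32.8 CPM beside 4.097 to 6.718 in the others, Cdkn1c with 134.2 CPM beside 35.49 to 43.47, Cnmd with 140.7 CPM beside 22.82 to 41.57, and Tectb with 5080 CPM beside 3439 to 3668. Replicate 4 stood high for 3: Fgf3 with 103.7 CPM beside 42.34 to 48.03, Fstl1 with 1239 CPM beside 650.9 to 715.6, and Heyl with 57.02 CPM beside 0 to 3.744. Replicate 2 stood high for Scg5, with 101.3 CPM beside 52.36 to 56.40. What sets these libraries apart was not tested.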

How the results depend on the processing

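Not every named gene was followed through the alternatives. Against all other P1 cells 111 named genes were called, and 51 called genes were followed. Of those run, the 51 called against all other P1 cells kept their direction wherever they could be fitted, and beside libraries left out the calls lost there were Ccbe1 (without the block, with a pseudocount of 1 CPM or with all genes kept), Dpp4 (thinned), Sorcs2 (thinned or with all genes kept) and Wif1 (in the same cases and at an Npy threshold of 4.0). Without the library block, which pairs the profiles of a library, 469 genes were higher and 575 lower against all other P1 cells, and 129 higher and 226 lower against Deiters-like cells, where 16 of the 73 calls run were lost (Atoh1, Ccbe1, Cdk6, Etv5, Fgfr1, Fos, Klf4, Nectin3, Sorcs2, Sox11, Sox21, Tcf4, Tuba1a, Tuba1c, Zbtb20 and Zfhx3). Thinned to 1500 UMIs, which leaves fewer counts and moved the median of all genes from −0.02 to −0.13 and from −0.03 to −0.11, the counts were 374 higher and 601 lower, and 144 higher and 262 lower. Thinning lost 17 of the 72 calls run against Deiters-like cells. They were Atoh1, Bmp7, Ccbe1, Cdk6, Etv5, Fgfr1, Fscn1, Kcnj10, Nectin3, Sfrp2, Sorcs2, Sox11, Tcf4, Tuba1c, Tuba4a, Zbtb20 and Zfhx3. When low genes were kept in, 2318 genes were lower against all other P1 cells, and 195 higher and 303 lower against Deiters-like cells. On the mean of the deposited log values 753 were lower in the first comparison and 601 higher in the second. The cause of these shifts was not tested. The differences of Hes5 and Ntf3 from Deiters-like cells ran from −0.36 to 0.18 and from −0.21 to 0.03 with 1 library left out in turn. Leaving out 1 library in turn gave 833 to 851 higher and 905 to 993 lower genes against all other P1 cells, and 276 to 349 higher and 408 to 490 lower against Deiters-like cells. Without cells of over 3000 genes the gate held 0.927% of P1 cells instead of 1.27% (mean of 4 libraries). Against Deiters-like cells, 4 uncalled genes changed sign: Hes5 on the mean of the log values (0.04) and without replicate 1 (0.18), Hey2 when thinned (−0.26), Lfng on the mean of the log values (0.05), and Ntf3 on summed UMIs (0.04), on the mean of the log values (0.12) and without replicate 2 (0.03).

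The 27 to 61 IPCs of a library limit what can be seen of genes with low levels, since 3 UMIs over all 172 cells amount to 2.30 CPM. Cells gated on Npy carry whatever follows Npy, and a cell that expresses the other pillar genes without Npy is not among them. Pools of pups, not animals, are the replicates. How the counting treated reads shared by overlapping or near-identical genes, such as the tubulins, is not given in the sources used here.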

Other observations

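The largest rise of IPCs in either comparison was not among the named genes, since Gm-numbered genes were set aside, and both genes here were named after their values were seen. Gm45645 (chr14:27838165-27876217, minus strand, GRCm38) is annotated as an antisense RNA gene inside Erc2 (chr14:27622428-28478537, plus strand). It had 759.4, 636.5, 771.6 and 48.75 CPM in the IPCs of replicates 1 to 4, 0, 0, 3.654 and 0 CPM in Deiters-like cells and 2.108, 0.342, 0.859 and 0.259 CPM in all other P1 cells. The differences were 5.17 ± 0.37 (SE, limma's adjusted p = 7.02e-11) and 5.16 ± 0.37 (adjusted p = 1.74e-10). The SE also draws on other genes and is not the spread of these libraries alone. Gm45645 passed the filter of a mean of 10 CPM through its IPC level, which left a rise as the outcome. Replicate 4 lay 15.8 times below replicate 3 in IPCs, yet above every library of the other classes. Erc2 itself, a presynaptic scaffold gene, had 2.039, 14.07, 3.754 and 22.84 CPM in IPCs, where the order of the libraries differed from that of Gm45645, and 4.763, 6.359, 11.97 and 6.830 CPM in all other P1 cells.

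Gm13782 (chr6:30673944-30682266, plus strand) lies within Cep41 (chr6:30653457-30693749, minus strand). It had 738.5, 402.8, 427.6 and 423.3 CPM in IPCs, 69.80, 18.25, 22.85 and 11.43 CPM in Deiters-like cells and 15.05, 2.230, 3.707 and 2.870 CPM in all other P1 cells, differences of 3.79 ± 0.19 (limma's adjusted p = 7.94e-14) and 5.01 ± 0.17 (adjusted p = 2.63e-16). The strand used for counting is not given in the sources used here, and whether the counts of the sense and the antisense gene share reads was not tested.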
